A study of Homo sapiens with 6 samples.

Results

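The 10 genes described here are those of the beta globin cluster on chromosome 11 (HBE1, HBG2, HBG1, HBBP1, HBD and HBB) and of the alpha globin cluster on chromosome 16 (HBZ, HBA2, HBA1 and HBQ1). They were taken by symbol from the 23710 gene symbols of the deposited count files, and all 10 were found. K562, an erythroid-like human leukaemia line, was given 20 µM 3FM-dC plus 2 mM THU for 24 h in 3 samples or the solvent DMSO for 24 h in 3 samples. The labels name both compounds only by these abbreviations. THU was given only together with 3FM-dC, so the effects of the compounds cannot be told apart. Both groups were grown in 10% serum and used at passages 13 to 16, and each library took 1000 ng of RNA through a directional mRNA kit. The question of the design was the transcriptional response to 3FM-dC, which the series title calls an activator of TET2, an enzyme that oxidises 5-methylcytosine. A single cell line stands for both groups, and the labels do not say whether the samples were separate cultures, so p-values speak only of the spread between libraries, and that spread may be technical.

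Haemoglobin pairs alpha-like with beta-like chains around haem, and each cluster switches its genes during development. In the beta cluster the embryonic gene HBE1 gives way to the fetal pair HBG2 and HBG1 and then to the adult genes HBD and HBB, under an upstream enhancer array called the locus control region. In the alpha cluster the embryonic gene HBZ gives way to HBA2 and HBA1, which serve fetus and adult alike. HBBP1 is a pseudogene that lies between the fetal and adult beta-like genes, and HBQ1 encodes theta globin, whose role is not settled. K562 is known for embryonic and fetal globins with hardly any adult beta globin.

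Near-identical copies limit what these counts can say, and the bases by which the fetal pair differ are shown for that reason. The coding sequences of HBG1 and HBG2, read from the GENCODE transcripts of GRCh38, are 444 bases long and differ at 2 bases, written C227T and C410G with the HBG1 base first and positions counted from 1 at the first base of the start codon. The second of these lies in codon 137, the start codon included. The stretch of coding bases 398 to 422 on the minus strand of chromosome 11 is given for each, with the differing base in capitals.
HBG1: agatggtgactgCagtggccagtgc
HBG2: agatggtgactgGagtggccagtgc
The coding sequences of HBA1 and HBA2, 429 bases long, do not differ at any base. Of all 50-base windows of the HBA1 transcript, 81.6% were also found in that of HBA2, and 50.1% of the windows of the HBG1 transcript in that of HBG2. The same count gave 0.176% for HBE1 against HBG2, 2.31% for HBD against HBB, and 0% for HBZ against HBA2 and for HBBP1 against HBD. How the authors' counting treated reads that match both copies is not given in the sources used here. HBG1, HBG2, HBA1 and HBA2 are therefore uncertain as single genes and are also given as sums. A sum does not restore shared reads that were left out of the counts.

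Libraries held 19052821 to 20737363 counts in genes in the treated group and 18408826 to 22750278 in the DMSO group. The labelled cell type was checked against 11 fixed markers of K562, all of which had counts. The sum of these 11 markers lay between 1958 and 2102 CPM in treated libraries, against 2999 to 3105 CPM in DMSO libraries (CPM are counts scaled to a library size of 1000000). Among these 11, TFRC alone averaged 689 ± 57.1 CPM in treated and 1271 ± 34.4 CPM in DMSO libraries (SD, n = 3 each), TAL1 and BCR overlapped between the groups, and ABL1 was higher in all treated libraries. The sum of 6 late erythroid markers overlapped, with 132 to 153 CPM in treated and 139 to 146 CPM in DMSO libraries. Its members moved in opposite directions. ALAS2 (86.1 ± 7.41 in treated, 65.4 ± 2.39 CPM in DMSO), SLC4A1 and GYPB were higher in all treated libraries. CA1 (8.27 ± 0.496 in treated, 26.4 ± 2.15 CPM in DMSO) and AHSP were lower in all treated libraries, and HBB overlapped. The sum of 5 megakaryocyte markers lay between 9.56 and 10.6 CPM in treated libraries, against 7.34 to 8.53 CPM in DMSO libraries. Most of it was ITGA2B (8.13 ± 0.749 in treated, 7.04 ± 0.325 CPM in DMSO), which overlapped, while ITGB3 was higher in all treated libraries. The sum of 4 epithelial markers, of which KRT5 and KRT14 had no count, lay between 60.6 and 63.7 against 102 to 103 CPM. Nearly all of the epithelial sum was EPCAM, with 62.1 ± 1.52 CPM in treated and 103 ± 0.708 CPM in DMSO libraries. The sum of 7 fibroblast and endothelial markers, of which CDH5 had no count, overlapped, with 7.29 to 11.6 CPM in treated and 10.4 to 13.9 CPM in DMSO libraries. The sum of 6 myeloid markers lay between 57.6 and 67.0 CPM in treated libraries, against 29.0 to 30.8 CPM in DMSO libraries, and that of 5 lymphoid markers, of which MS4A1 and CD2 had no count, between 2.19 and 3.33 against 0.673 to 1.41 CPM. Most of the myeloid sum was SPI1 (34.4 ± 4.78 in treated, 15.7 ± 1.39 CPM in DMSO) and LYZ (24.1 ± 0.382 and 13.6 ± 0.972 CPM). CSF3R (2.18 and 0.0525 CPM) was also higher in all treated libraries. CD14 overlapped, and in treated libraries MPO and ITGAM averaged only 0.0486 and 0.403 CPM. The part of these shifts in the globin values was not tested. In bulk RNA, fewer cells of a type and less RNA per cell cannot be told apart.

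Globin transcripts fell in treated cells, and the genes did not fall equally. The 10 genes together held 0.275%, 0.271% and 0.274% of gene counts in treated replicates 1, 2 and 3, against 0.536%, 0.526% and 0.531% in DMSO replicates 1, 2 and 3. The 9 genes that passed the count filter were all lower (adjusted p under 0.05, quasi-likelihood test of edgeR, Benjamini-Hochberg), and 7 of them at least 2-fold. Of these 7, HBE1 lay at the limit. Its log2 fold change was -1.01, but -0.92 with total counts scaling and -0.998 without treated replicate 2. Among all 12339 tested genes 32.7% were lower and 2.46% were lower at least 2-fold. The CPM of the groups did not overlap for any of the 9 genes, as was so for 70% of all tested genes and, with the treated libraries lower, for 34.5%. HBB did not pass the filter. The median log2 fold change of the 9 genes was -1.30, against 0.01 over all tested genes. The pseudogene HBBP1 and the adult gene HBD had the lowest log2 fold changes, and the embryonic and fetal genes of the beta cluster, which supply most globin transcripts in these cells, kept nearly the same balance with each other.

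**Figure D1:**
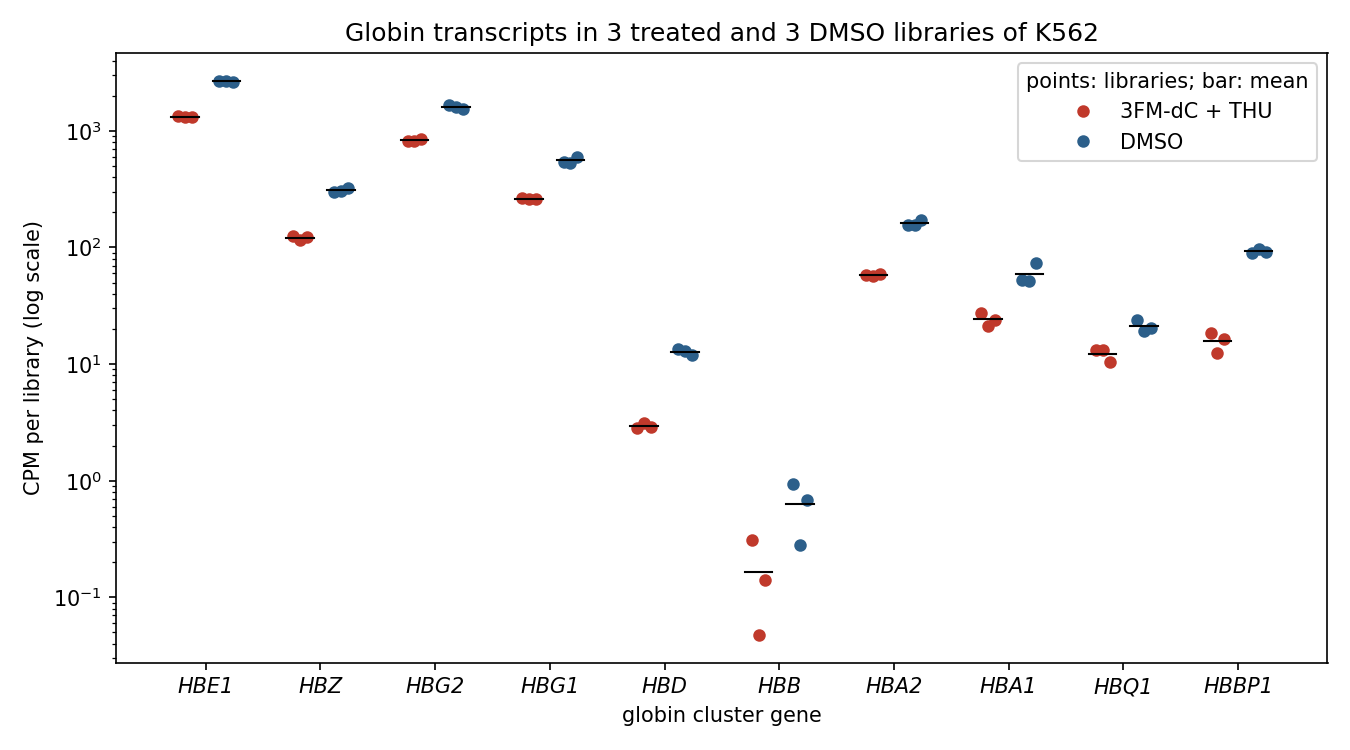
Level of each globin cluster gene in CPM on a log axis, with 1 point per library and a bar at the mean of 3 libraries. Red points are the 3FM-dC plus THU libraries and blue points the DMSO libraries; the groups overlap only for HBB, which had at most 17 counts in a library.

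Per transcript length, and in the counts as given, the embryonic genes were the most abundant of their clusters. If reads shared by near-identical copies were left out, the fetal and alpha pairs would read too low, so these ranks are uncertain. HBE1, which encodes embryonic epsilon globin, had 1345, 1304 and 1327 CPM in treated libraries, against 2693, 2659 and 2648 CPM in DMSO libraries. The groups lay far apart and the replicates within 1 group differed little. HBE1 fell by 1.01 on the log2 scale (SE 0.03, edgeR adjusted p = 2.48e-22). HBZ, which encodes the embryonic zeta chain of the alpha family, had 126, 115 and 122 CPM in treated libraries, against 302, 302 and 324 CPM in DMSO libraries. No treated library came near the DMSO range. HBZ fell by 1.35 (SE 0.04, edgeR adjusted p = 4.05e-21), to 39.1% of its DMSO level, against 49.7% for HBE1.

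The fetal genes HBG2 and HBG1 encode the gamma chains of fetal haemoglobin. HBG2 had 826, 821 and 845 CPM in treated libraries, against 1658, 1593 and 1553 CPM in DMSO libraries. HBG1 had 265, 259 and 259 CPM in treated libraries, against 546, 535 and 594 CPM in DMSO libraries. Neither gene's groups overlapped, and DMSO replicate 3 was the highest for HBG1 and the lowest of its group for HBG2. HBG2 fell by 0.95 (SE 0.03, edgeR adjusted p = 1.44e-20) and HBG1 by 1.10 (SE 0.04, edgeR adjusted p = 5.23e-20) on the log2 scale. Summed before the fit, the pair fell by 0.98 (SE 0.03, edgeR adjusted p = 7.06e-22), which does not depend on how shared reads were split between them.

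The adult beta-like genes had the lowest levels of the 10 genes, and HBB was close to silent. HBD, which encodes the delta chain of the minor adult haemoglobin, had 2.82, 3.14 and 2.86 CPM in treated libraries, against 13.5, 12.9 and 11.9 CPM in DMSO libraries. These values rest on 55 to 66 counts per treated library and 231 to 262 counts per DMSO library. HBD fell by 2.11 (SE 0.15, edgeR adjusted p = 8.46e-13), the second largest fall of the 9 genes. HBB, which encodes adult beta globin, had 6, 1 and 3 counts in treated libraries, against 17, 5 and 15 in DMSO libraries. The groups overlapped, since treated replicate 1 had more counts than DMSO replicate 2. The ratio of its summed counts, treated over DMSO and scaled to library size, was 0.253 (exact 95% interval 0.112 to 0.519, for counting error only). With no filter on low counts edgeR gave HBB a log2 fold change of -1.94 (SE 0.69, adjusted p = 0.0116). That fit gave smaller adjusted p-values than the main fit for all 9 tested globin genes, such as 2.75e-13 against 4.48e-07 for HBQ1. Its p-value for HBB may therefore be too small. DESeq2 gave HBB a log2 fold change of -1.97 (SE 0.84, adjusted p = 0.0357).

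HBA2 and HBA1 encode the same alpha chain. HBA2 had 58.3, 56.7 and 59.6 CPM in treated libraries, against 157, 156 and 173 CPM in DMSO libraries. HBA1 had 27.5, 21.3 and 23.9 CPM in treated libraries, against 52.4, 51.6 and 73.5 CPM in DMSO libraries. The groups did not overlap for either gene, and DMSO replicate 3 stood above the other DMSO libraries for both. HBA2 fell by 1.48 (SE 0.05, edgeR adjusted p = 3.17e-20) and HBA1 by 1.30 (SE 0.10, edgeR adjusted p = 4.96e-12). Without DMSO replicate 3 the fall of HBA1 was 1.10. The summed pair fell by 1.43 (SE 0.06, edgeR adjusted p = 5.60e-19).

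HBQ1, the theta globin gene at the end of the alpha cluster, had the smallest change of the 9 genes. It had 13.3, 13.3 and 10.4 CPM in treated libraries, against 23.9, 19.2 and 20.5 CPM in DMSO libraries. The groups did not overlap, and treated replicate 3 and DMSO replicate 1 stood apart from the other libraries of their groups. HBQ1 fell by 0.78 (SE 0.11, edgeR adjusted p = 4.48e-07).

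The pseudogene HBBP1 had a lower log2 fold change than any coding globin gene tested. It had 18.5, 12.4 and 16.3 CPM in treated libraries, against 89.6, 96.3 and 91.9 CPM in DMSO libraries. Treated replicate 2 was the lowest, and even the highest treated library was far under the lowest DMSO library. HBBP1 fell by 2.56 on the log2 scale (SE 0.08, edgeR adjusted p = 1.06e-20), to 17.0% of its DMSO level. In a ranking of all 12339 tested genes by log2 fold change, HBBP1 was the 13th lowest and HBD the 37th, while the other tested globin genes ranked between 121 (HBA2) and 577 (HBQ1). These neighbours lie side by side on the same strand, and 1 of 6 GENCODE transcripts of HBD on GRCh38 spans HBBP1 as well. Whether any read came from such a joint transcript cannot be seen in counts per gene.

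**Figure D2:**
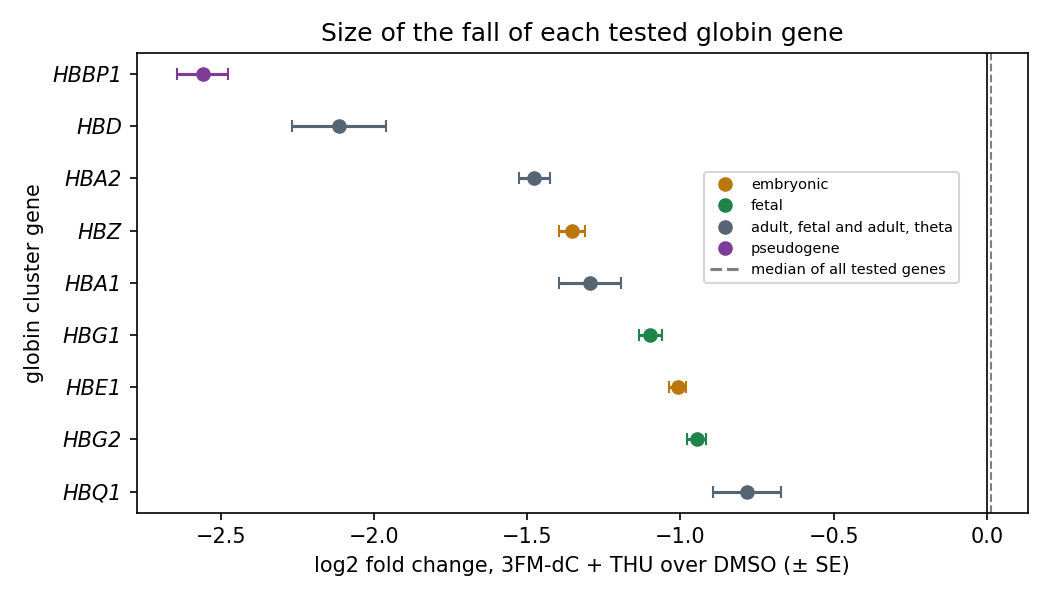
Log2 fold change of each tested globin gene, 3FM-dC plus THU over DMSO, with its standard error as a bar, sorted by size; colours mark the developmental class and the dashed line the median of all tested genes. HBBP1 (-2.56) and HBD (-2.11) stand apart from the other 7 genes, which lie between -1.48 and -0.78.

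In the order of their log2 fold changes, not all neighbours could be told apart. The log2 ratio of the counts of 2 genes was compared between the libraries of each group. HBBP1 against HBD, HBD against HBA2, HBA2 against HBZ, and HBG1 against HBE1 had ratios that did not overlap between the groups. For HBBP1 against HBD the groups nearly touched, at 2.72 in treated replicate 1 and 2.73 in DMSO replicate 1, so their order is not firm. The ratios of HBZ against HBA1, HBA1 against HBG1, HBE1 against HBG2, and HBG2 against HBQ1 did overlap, so these neighbours did not differ beyond the spread of the libraries. An exact permutation test of 3 libraries against 3 cannot give a two-sided p below 0.1, so none of the ratios below could pass 0.05. There were 10 such tests. The first 7 were the globin share of gene counts and 6 ratios, over which Benjamini-Hochberg adjustment turned a p of 0.1 into 0.14. The other 3 ratios, HBD to the fetal pair, HBQ1 to the alpha pair and HBBP1 to HBD, were chosen after their values were seen and adjusted among themselves, where 0.1 stayed 0.1.

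The embryonic to fetal balance of the beta cluster hardly moved. HBE1 had 1.23, 1.21 and 1.20 counts per count of the fetal pair in treated libraries, against 1.22, 1.25 and 1.23 in DMSO libraries. These ranges overlapped, and the log2 ratio differed by -0.02 (exact permutation test, two-sided p = 0.2, adjusted p = 0.233). HBE1 made up 54.4% ± 0.283 of the beta cluster's counts in treated libraries and 54.1% ± 0.229 in DMSO libraries (SD, n = 3 each). The adult gene HBD shifted against the fetal pair. Its log2 ratio to the fetal pair was -8.54 ± 0.10 in treated libraries and -7.40 ± 0.08 in DMSO libraries, a difference of -1.13 (exact permutation p = 0.1, the smallest possible).

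The alpha cluster held a smaller part of globin counts in treated libraries. The summed counts of the beta cluster were 10.9, 11.6 and 11.3 times those of the alpha cluster in treated libraries, against 9.35, 9.26 and 8.29 times in DMSO libraries. The log2 ratio of alpha-like to beta-like counts thus differed by -0.33, with no overlap (exact permutation p = 0.1). It ranged from -0.37 to -0.28 when each library was left out in turn. As sums, the alpha cluster had 216 ± 9.15 CPM in treated and 552 ± 34.3 CPM in DMSO libraries, and the beta cluster 2436 ± 31.6 CPM in treated and 4932 ± 60.2 CPM in DMSO libraries (SD, n = 3 each).

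Within the alpha cluster the embryonic to adult balance moved little. HBZ had 1.47, 1.48 and 1.46 counts per count of HBA1 and HBA2 in treated libraries, against 1.44, 1.46 and 1.31 in DMSO libraries. The log2 difference was 0.07 without overlap (exact permutation p = 0.1), and 0.02 without DMSO replicate 3. HBQ1 moved against the alpha pair, with a log2 ratio of -2.75 ± 0.23 in treated and -3.39 ± 0.23 in DMSO libraries (exact permutation p = 0.1). Its share of the alpha cluster's counts was 5.72% ± 0.820 in treated and 3.85% ± 0.532 in DMSO libraries.

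The near-identical pairs gave no firm shift. HBG2 had 3.12, 3.17 and 3.27 counts per HBG1 count in treated libraries, against 3.04, 2.98 and 2.62 in DMSO libraries. The log2 ratio of HBG1 to HBG2 differed by -0.15 (exact permutation p = 0.1), but by -0.08 without DMSO replicate 3. HBA2 had 2.12, 2.66 and 2.49 counts per HBA1 count in treated libraries, against 2.99, 3.02 and 2.36 in DMSO libraries. The ranges overlapped (log2 ratio of HBA1 to HBA2, difference 0.20, exact permutation p = 0.3). That difference was 0.11 without treated replicate 1 and 0.32 without DMSO replicate 3.

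The pseudogene was lower relative to the coding genes of its own cluster in every treated library. The log2 ratio of HBBP1 to all coding beta-like counts was -7.04, -7.59 and -7.22 in treated libraries, against -5.78, -5.64 and -5.71 in DMSO libraries. The difference of -1.58 had no overlap (exact permutation p = 0.1) and stayed between -1.70 and -1.42 when each library was left out. HBBP1 held 0.646% ± 0.121 of the cluster's counts in treated and 1.88% ± 0.0883 in DMSO libraries (SD, n = 3 each). Against HBD, the neighbour that fell nearly as far, its log2 ratio differed by -0.46 (exact permutation p = 0.1), and by -0.24 without treated replicate 2.

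**Figure D3:**
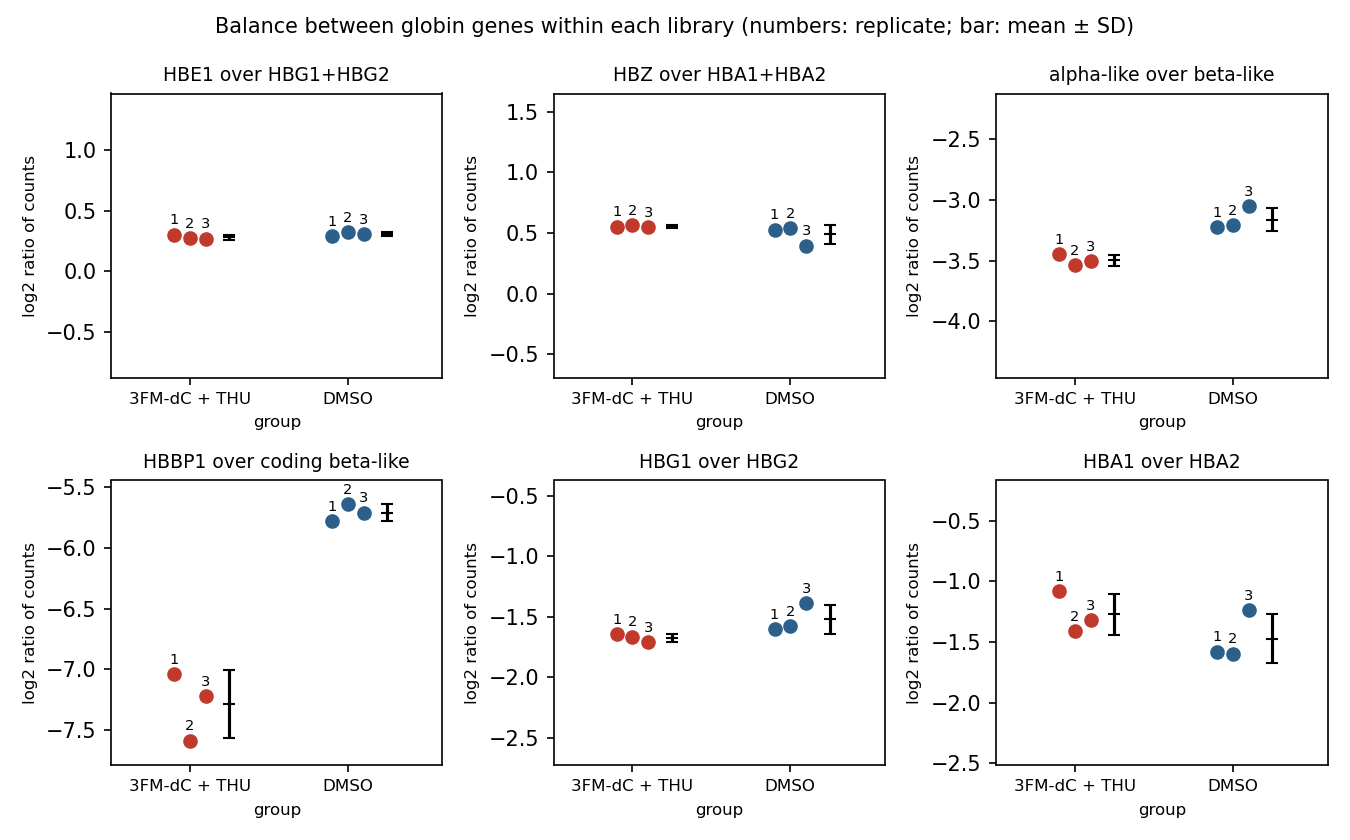
Log2 ratio of counts between globin genes within each library, by group, with every panel spanning the same height; numbers give the replicate and black bars the mean ± SD of 3 libraries. The ratio of HBBP1 to the coding beta-like genes moves by -1.58 and that of alpha-like to beta-like genes by -0.33, while that of HBE1 to the fetal pair differs by -0.02.

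Per kilobase of transcript, with lengths between 439 (HBBP1) and 785 bases (HBD) from the GENCODE models matched to RefSeq accessions, HBE1 had the highest level of the 10 genes and HBB the lowest in both groups. HBE1 reached 2151 ± 33.4 CPM per kb in treated and 4329 ± 38.4 CPM per kb in DMSO libraries. HBG2, HBG1, HBZ and HBA2 followed in this order in both groups, without overlap between neighbours in the order. HBBP1 and HBA1 came next and changed places. In treated libraries HBA1 had 42.0 ± 5.37 and HBBP1 35.9 ± 7.10 CPM per kb, with overlapping values, while in DMSO libraries HBBP1 stood at 211 ± 7.80 and HBA1 at 103 ± 21.4 CPM per kb, with none. HBQ1 came after them, with 23.0 ± 3.09 CPM per kb in treated and 39.5 ± 4.50 CPM per kb in DMSO libraries. HBD came at 3.75 ± 0.226 CPM per kb in treated and 16.3 ± 1.03 CPM per kb in DMSO libraries, above HBB. The places of HBG2, HBG1, HBA2 and HBA1 against the other genes, HBE1 and HBZ included, depend on how shared reads were counted, which is not known.

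Of the 10 genes 1, HBD, had an entry in the RefSeq promoter table of GRCh38.p14, and its upstream sequence is shown because HBD had the lowest log2 fold change of the coding genes tested. The 250 bases before its start lie on the minus strand at chr11:5234484-5234733. Capitals mark matches, on either strand, to the motifs searched.
HBD: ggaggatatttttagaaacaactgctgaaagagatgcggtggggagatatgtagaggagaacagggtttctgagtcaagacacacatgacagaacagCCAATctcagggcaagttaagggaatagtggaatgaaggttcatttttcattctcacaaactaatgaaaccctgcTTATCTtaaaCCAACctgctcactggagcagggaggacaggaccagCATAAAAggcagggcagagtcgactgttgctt
The letters AGATAA are bound by GATA factors and stand here as TTATCT in the strand shown. The letters CACCC are bound by KLF1. CCAAT with its variant CCAAC and TATAAA with its variant CATAAAA are common elements of promoters. None of the matches overlapped another. Neither CACCC nor TATAAA was in this window. CCAAT began 153, AGATAA (on the other strand) 78, CCAAC 68 and CATAAAA 32 bases before the start. Over the same 250 bases of 35116 promoters, 54.7% held CACCC, 10.7% TATAAA, 32.0% CCAAT, 33.0% CCAAC, 9.17% AGATAA and 3.40% CATAAAA. A match is a run of letters and not a site shown to be used.

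Genes that regulate the globin clusters were mostly lower. Of 54 listed regulators 53 were tested, of which 31 fell, 11 rose and 11 did not pass, with 32.7% of all tested genes lower and 33.8% higher. With libraries scaled by total counts, 26 fell and 16 rose. Over the regulators the median log2 fold change was -0.20, against 0.01 over all tested genes. KLF1, an activator that binds CACCC boxes of globin promoters, had 47.8, 41.0 and 45.8 CPM in treated libraries, against 178, 166 and 174 CPM in DMSO libraries. Its log2 fold change of -1.94 (SE 0.05, edgeR adjusted p = 2.09e-22) was the lowest of the tested regulators. NFE2, a subunit of the factor that binds the locus control region, had 116, 97.9 and 108 CPM in treated libraries, against 264, 265 and 273 CPM in DMSO libraries, and fell by 1.31 (SE 0.05, edgeR adjusted p = 1.26e-19).

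The groups did not overlap for either factor. LMO2 and LDB1, which bridge enhancer and promoter complexes and which were named after their values were seen, fell by 1.54 and 1.19. TAL1, their partner in the same complex, had 211 ± 14.8 CPM in treated and 196 ± 6.49 CPM in DMSO libraries, with overlapping values, and a log2 fold change of 0.11 (SE 0.05, edgeR adjusted p = 0.0298). GATA1, the erythroid master factor, fell less, by 0.57 (SE 0.04, edgeR adjusted p = 7.03e-13). ZBTB7A, a repressor of fetal globin, fell by 0.49 (SE 0.07, edgeR adjusted p = 6.31e-07). BCL11A, another, had 1 count in all, in treated replicate 2, and was not tested. The list held further repressors of embryonic or fetal globin genes, and these did not share one direction. Among them SOX6 fell by 0.55, and NFIA (log2 fold change -1.27) and NFIX (-0.71) fell too. NR2F2 rose by 0.57, and NR2C1 (0.06) and NR2C2 (0.08) did not pass. Of corepressor genes on the list, KDM1A (-0.67), PRMT5 (-0.56), DNMT1 (-0.49), EHMT2 (-0.40), GATAD2A (-0.36), MTA2 (-0.35), HDAC1 (-0.33), HDAC2 (-0.33), EHMT1 (-0.26) and MBD2 (-0.20) fell. POGZ (0.34) and RCOR1 (0.12) rose, and CHD4 (-0.06), MBD3 (0.05) and GATAD2B (0.11) did not pass. ATF4, a transcription factor of the stress response, rose by 1.21 (SE 0.03, edgeR adjusted p = 2.09e-22). Among the other 10 regulators that rose were the nuclear receptor gene NR2F2, given above, and the coactivator gene CREBBP, by 0.65. CREBBP, NR2F2, SOX6, NFIA, NFIX, NR2C1, NR2C2 and the corepressor genes were also named after their values were seen.

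The haemoglobin assembly list held genes that make haem, and also genes of haem breakdown (HMOX2, BLVRB) and export (FLVCR1) and the kinase gene EIF2AK1. Of its 23 tested members 20 were lower, those with these other roles among them, ALAS2 rose and 2 did not pass. Of all tested genes 32.7% were lower and 33.8% higher. With libraries scaled by total counts, 17 fell and 2 rose. The median log2 fold change of this list was -0.38. AHSP, the chaperone that binds free alpha globin, had 3.69, 2.38 and 2.77 CPM in treated libraries, against 18.1, 17.4 and 15.2 CPM in DMSO libraries. AHSP fell by 2.52 (SE 0.15, edgeR adjusted p = 2.19e-14), beside -1.48 for HBA2 and -1.30 for HBA1, the genes of the chain it binds. The transferrin receptor gene TFRC fell by 0.88 (SE 0.04, edgeR adjusted p = 3.53e-17) and FECH, which inserts iron into the ring, by 0.87 (SE 0.04, edgeR adjusted p = 3.10e-16). ALAS2, the erythroid enzyme of the first step, rose by 0.40 (SE 0.06, edgeR adjusted p = 8.23e-07).

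**Figure D4:**
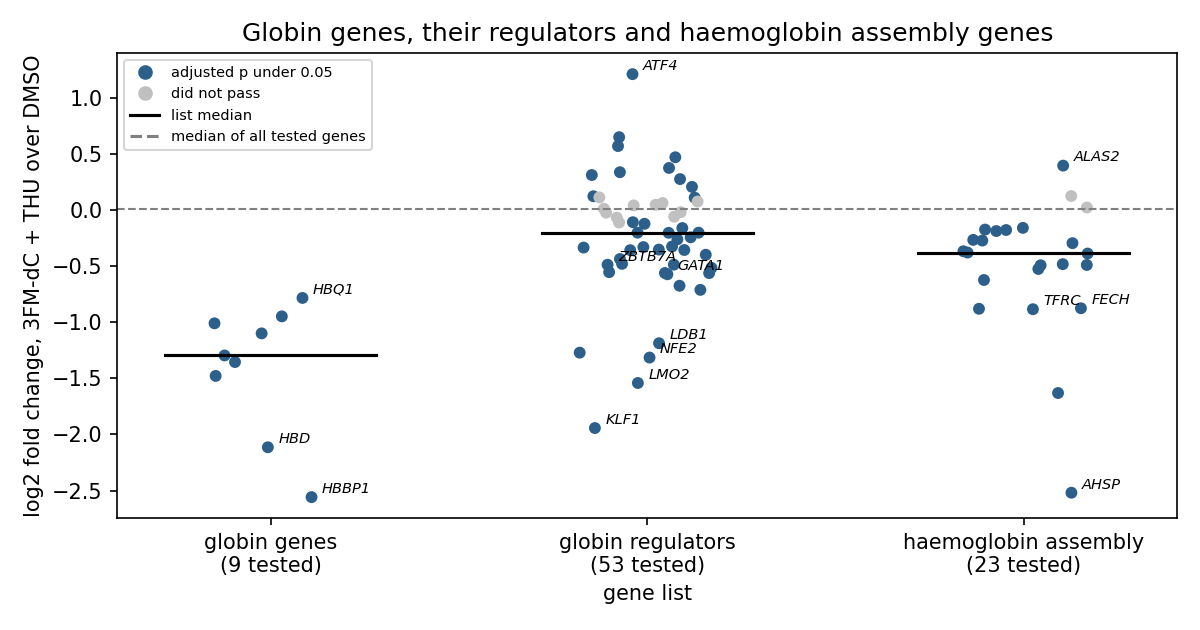
Log2 fold change, 3FM-dC plus THU over DMSO, of each tested globin gene, regulator and haemoglobin assembly gene, with 1 point per gene, black bars at the list medians (-1.30, -0.20 and -0.38) and a dashed line at the median of all tested genes (0.01). AHSP (-2.52) lies close to HBBP1 (-2.56) and KLF1 (-1.94) close to HBD (-2.11), while ATF4 (1.21) and ALAS2 (0.40) rose.

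Genes beside the clusters did not share one direction. Near the alpha cluster 6 of 13 tested neighbours fell, 2 rose and 5 did not pass, a share of 61.5% called against 66.4% of all tested genes. NPRL3, whose introns hold the alpha globin enhancers, had 93.1 ± 1.17 CPM in treated and 94.2 ± 3.79 CPM in DMSO libraries (log2 fold change -0.02, SE 0.05, edgeR adjusted p = 0.792). LUC7L, just past HBQ1, fell by 0.46 (SE 0.07, edgeR adjusted p = 5.60e-07), and these neighbours next to the cluster were named after their values were seen. Further out, NME4, a nucleoside diphosphate kinase gene, fell by 1.22, POLR3K, a subunit gene of RNA polymerase III, by 0.88 and SNRNP25, a spliceosome gene, by 0.88, while ITFG3 rose by 0.88 and RAB11FIP3 by 0.72.

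Near the beta cluster 7 of 17 tested neighbours rose, 4 fell and 6 did not pass, a share of 64.7% called that is close to the 66.4% of all tested genes, and with libraries scaled by total counts 10 rose and 1 fell. The calcium sensor gene STIM1 rose by 0.60, TRIM6 by 1.11 and the acid sphingomyelinase gene SMPD1 by 0.65. Of the olfactory receptor genes beside HBE1, OR51B4 and OR51B5 were readily counted, while OR51B2, which lies between them, had 98 counts in all treated and 72 in all DMSO libraries. OR51B4, the nearest, had 45.1 ± 3.36 CPM in treated and 36.0 ± 1.51 CPM in DMSO libraries and rose by 0.33 (SE 0.07, edgeR adjusted p = 0.000144), and OR51B5 had 99.6 ± 3.23 CPM in treated and 112 ± 1.82 CPM in DMSO libraries, a log2 fold change of -0.17 (SE 0.05, edgeR adjusted p = 0.00220; both named after their values were seen). In GENCODE, 2 of 3 transcripts of HBE1 and 1 of 3 of HBG2 run over more than 100 kb through this upstream region. Which of the transcripts gave the reads cannot be seen in counts per gene.

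**Figure D5:**
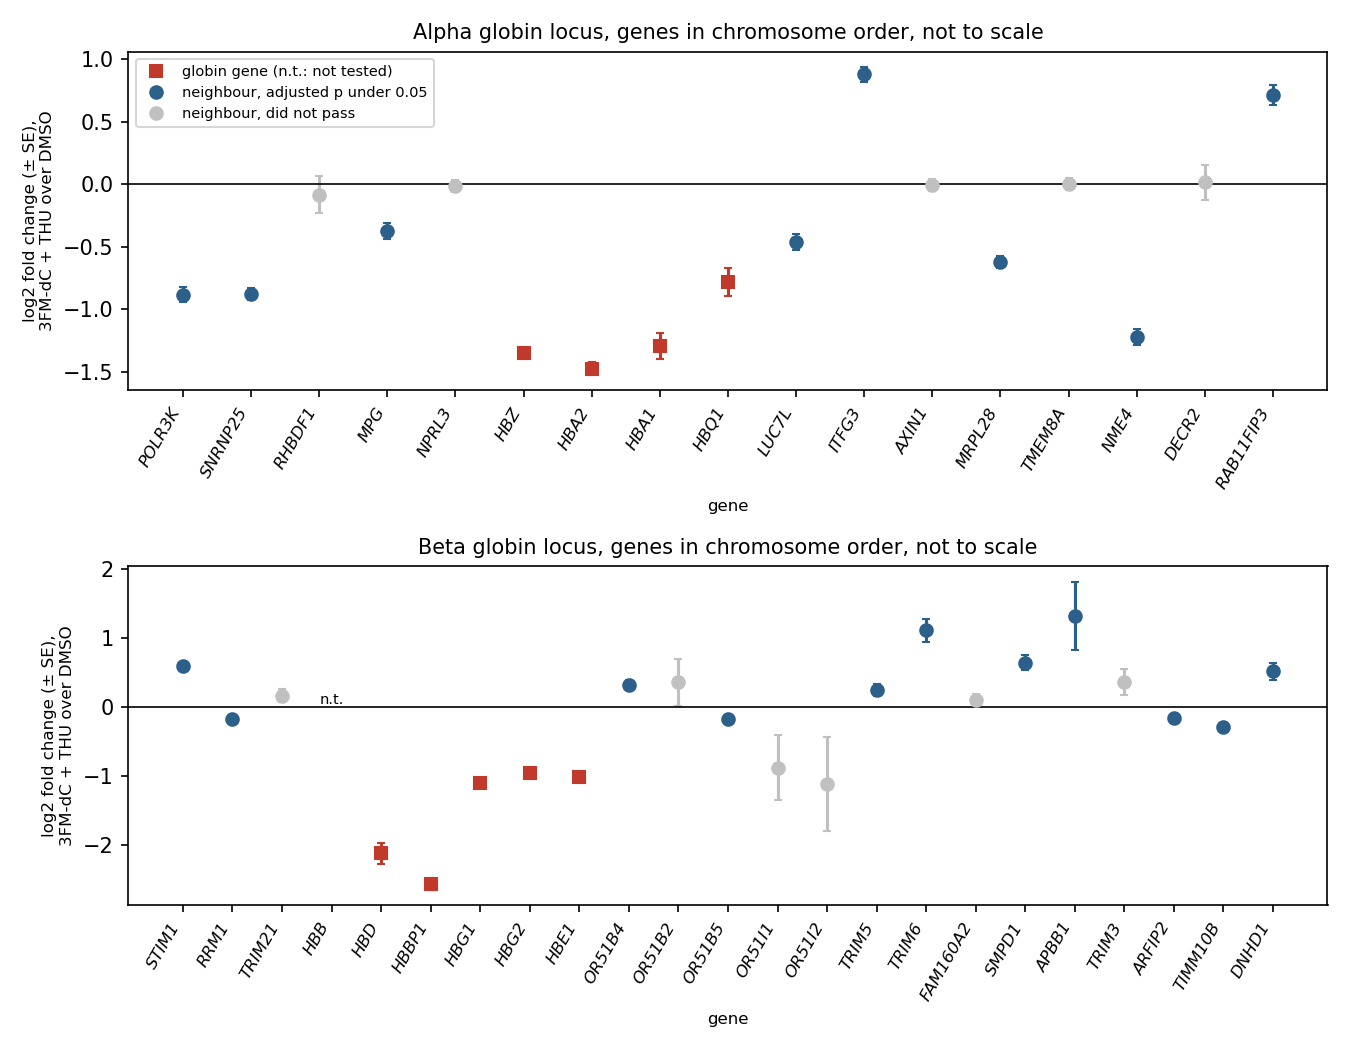
Log2 fold change with its standard error, 3FM-dC plus THU over DMSO, of globin genes (red squares) and their tested neighbours (circles, grey where the test was not passed), in chromosome order and not to scale. All tested globin genes lie under -0.7, while NPRL3 (-0.02), LUC7L (-0.46) and OR51B4 (0.33), at the edges of the clusters, do not. Further out, NME4 (-1.22), POLR3K (-0.88) and SNRNP25 (-0.88) lie under -0.7 too, as do OR51I1 (-0.88) and OR51I2 (-1.11), which did not pass. ITFG3 (0.88), RAB11FIP3 (0.72) and TRIM6 (1.11) are among the neighbours that rose.

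Over the 6 libraries, the profile of centred log2(CPM + 0.5) of 8849 genes, all averaging 10 CPM or more, was compared with the mean profile of the 8 globin genes above that level. HBZ, itself 1 of the 8 genes averaged, which brings it closer by construction, had a root mean square distance of 0.03 on the log2 scale. The 6 closest other genes were MYL4, NFE2, FKBP4, HIST1H1C, RYR1 and HSPE1, at distances between 0.04 and 0.05. MYL4, which encodes an embryonic myosin light chain, had 46.3 ± 2.05 CPM in treated and 118 ± 3.53 CPM in DMSO libraries. HBBP1 ranked 4445th in this order, with a log2 fold change of -2.56 beside -1.35 for HBZ. RYR1 averaged 5.91 ± 0.268 CPM in treated and 14.4 ± 0.347 CPM in DMSO libraries, so it reached the level of 10 CPM only through the DMSO group. The likeness is a description over 6 libraries in 2 groups.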

How the data were processed

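Each library came as the authors' deposited raw counts by gene symbol, which entered the tests unchanged. STAR, Cufflinks, DESeq2 and the build hg19 are named without roles, per the submitters' processing notes. The annotation, strand setting and handling of multiply matching reads were not given in the sources used here. The 5 rows of unassigned reads were left out; reads in no feature made up 10.9% to 13.1% and ambiguous reads 2.27% to 2.38% of all counts. Per the file headers, the authors' deposited table gives a fold ratio of group B over group A, a p-value and an adjusted p-value for each gene.

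Counts were tested with edgeR 4.0.16 in R 4.3.3 (quasi-likelihood, TMM, filterByExpr with a minimum count of 10), two-sided, with Benjamini-Hochberg adjustment over all 12339 tested genes and a call at an adjusted p under 0.05. Of these, 4167 were higher and 4031 lower, and 5059 and 3185 with total counts scaling. CPM are counts over the TMM-scaled size of the library, times 1000000; an SE was derived from the log2 fold change and its F statistic. A total of 3 counts in a library corresponds to 0.132 to 0.163 CPM of gene counts. Ratios within a library were compared by exact permutation with SciPy 1.17.1. Replicate pairs differed beyond counting noise (chi-square per degree of freedom 2.38 to 6.22). Tested on simulated data for this comparison, the test recovered 100 of 100 genes changed by 1 and 100 of 100 changed by 2 on the log2 scale among 12201. It also called 19 of 12001 unchanged genes. Far fewer genes were changed there than the 8198 called in the data, so the scaling was not tested at that share.

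Alternatives were total counts scaling, DESeq2's size factors (RLE), DESeq2 1.42.0, no filter, a replicate block, leaving out each library, and summing near-identical pairs. Named were the 10 globin genes, GATA1, KLF1, BCL11A, ZBTB7A, NFE2, AHSP, the 3 most significant called members of each list, up to 3 called members against the majority of a list, and the 6 genes of most like profile; other genes were named after their values were seen. Some genes under this rule are not reported here. Members and lists were chosen with earlier results of these data known. Lengths and transcript sequences came from GENCODE on GRCh38, which is not the build of the counts, and were matched by symbol.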

Additional observations from a re-analysis of the deposited data

How the results depend on the processing

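All of the 9 tested globin genes were lower under each alternative run, with their log2 fold changes between -2.69 (HBBP1) and -0.67 (HBQ1). The count of globin genes called was 9 with total counts scaling, with RLE size factors and with the replicate block, 10 with DESeq2 and with no filter, where HBB was tested too, 7 with near-identical pairs summed, which leaves fewer genes to test, and 9 to 10 when a library was left out. The same-numbered libraries of the groups did not deviate together (correlations of -0.00189, -0.000611 and -0.0674), so no pairing by number was seen. Such values cannot exclude that same-numbered samples were handled together, which the labels do not say. Under the replicate block 8050 genes were called, against 8198 without it, 40 against 42 regulators, 21 against 21 haemoglobin assembly genes, 8 against 8 alpha and 11 against 11 beta neighbours. For the within-library ratios a permutation within numbers cannot give a p below 0.25. When a library was left out, the count of called regulators lay between 37 and 43, of assembly genes between 19 and 21, of alpha neighbours between 8 and 9 and of beta neighbours between 9 and 13. Depth limits HBB and BCL11A, and shared reads limit the single values of HBG1, HBG2, HBA1 and HBA2.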

Other observations

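Other genes of the globin fold were close to undetected. MB and NGB, which encode myoglobin and neuroglobin, had no count in any library. CYGB, which encodes cytoglobin, had 0, 3 and 3 counts in treated libraries, against 0, 2 and 0 in DMSO libraries, and ADGB had 1 count in all. HBM, the mu globin gene of the alpha cluster, had no count in treated libraries and 2 counts in DMSO replicate 1. A count of 0 in a library allows 3 counts, or up to 0.163 CPM of gene counts.

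The authors' deposited table lists all 10 globin genes with a fold of group B over group A between 0.168 (HBBP1) and 0.576 (HBQ1) and an adjusted p-value under 0.05, with 0.0420 for HBB. Its header does not name the groups. For the 9 tested genes its folds lay close to the treated over DMSO folds found here. Examples are HBE1 (0.492 and 0.497), HBBP1 (0.168 and 0.170) and HBQ1 (0.576 and 0.581).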
